A study of Saccharomyces cerevisiae with 13 samples.

Results

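Biotin is an enzyme-bound vitamin that carries carbon dioxide in carboxylation reactions, and yeast must either import it or finish its synthesis from imported precursors. Many laboratory strains of Saccharomyces cerevisiae lack the early steps and make biotin from keto-aminopelargonic acid, which Bio5 imports, Bio3 converts to diaminopelargonic acid, Bio4 to dethiobiotin and Bio2 to biotin. Vht1 imports biotin itself, the ligase Bpl1 attaches it to proteins, and the carboxylases Acc1, Pyc1 and Pyc2 use it. The transcripts of these 9 genes are described here.

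The genes were chosen by name, with earlier results of these data known. Every probe set that the platform annotation assigns to them was taken. Each gene had 1 probe set naming no other gene, so 9 probe sets of 9335 on the array were used. All 9 genes passed the filter on dim probe sets and belong to the 5102 genes tested. The array labels RNA with biotin as a tag, which is unrelated to the biotin the cells use.

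The series measured total RNA of budding yeast on 13 one-colour Affymetrix arrays. The 5 spermidine and 3 spermine samples came from cells labelled delta-spe3 delta-fms1, which lack spermidine synthase and a polyamine oxidase and were treated with the named polyamine. The 5 control samples are labelled only as control, with no genotype given, and the series title speaks of a polyamine-deficient mutant. On all 13 arrays the SPE3 signal lay between 0.570 and 13.8 and that of FMS1 between 1.10 and 8.10, within the lowest 10.6% of probe sets of each array, in the controls too. The labels name neither strain background nor medium, biotin supply, dose or duration. Whether the arrays of a group stem from independent cultures is not stated either, and the spread behind each p-value may therefore be technical. With 3 to 5 arrays in a group, precision is limited by their number.

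Signals are linear MAS5 units as deposited, and differences are log2 differences of quantile normalized signals with their standard error (SE). A gene is called when its Benjamini-Hochberg adjusted p from limma, over all 5102 genes, is under 0.05. Controls 2 and 3 and spermine 1 were known from earlier results of these data to deviate together across the genome. Leaving out these 3 arrays changed 1 call among the 9 genes, that of BPL1 with spermidine.

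Spermidine against control addressed the addition of the polyamine whose synthase gene is deleted. All 4 BIO genes and the transporter gene VHT1 rose, between 4.69-fold for VHT1 and 29.8-fold for BIO5. The ligase gene BPL1 rose 1.72-fold and the acetyl-CoA carboxylase gene ACC1 fell 1.50-fold, while the pyruvate carboxylase genes were not called. In all, 7 of the 9 genes were called, against 32.6% of all genes tested. Of these 6 were higher, against 17.9% of all genes, and 1 lower, against 14.7%. The count of genes called and at least 2-fold higher was 5 of 9, against 5.70% of all genes. The median log2 difference was 2.23 over the 9 genes and 0.02 over all genes.

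**Figure D1:**
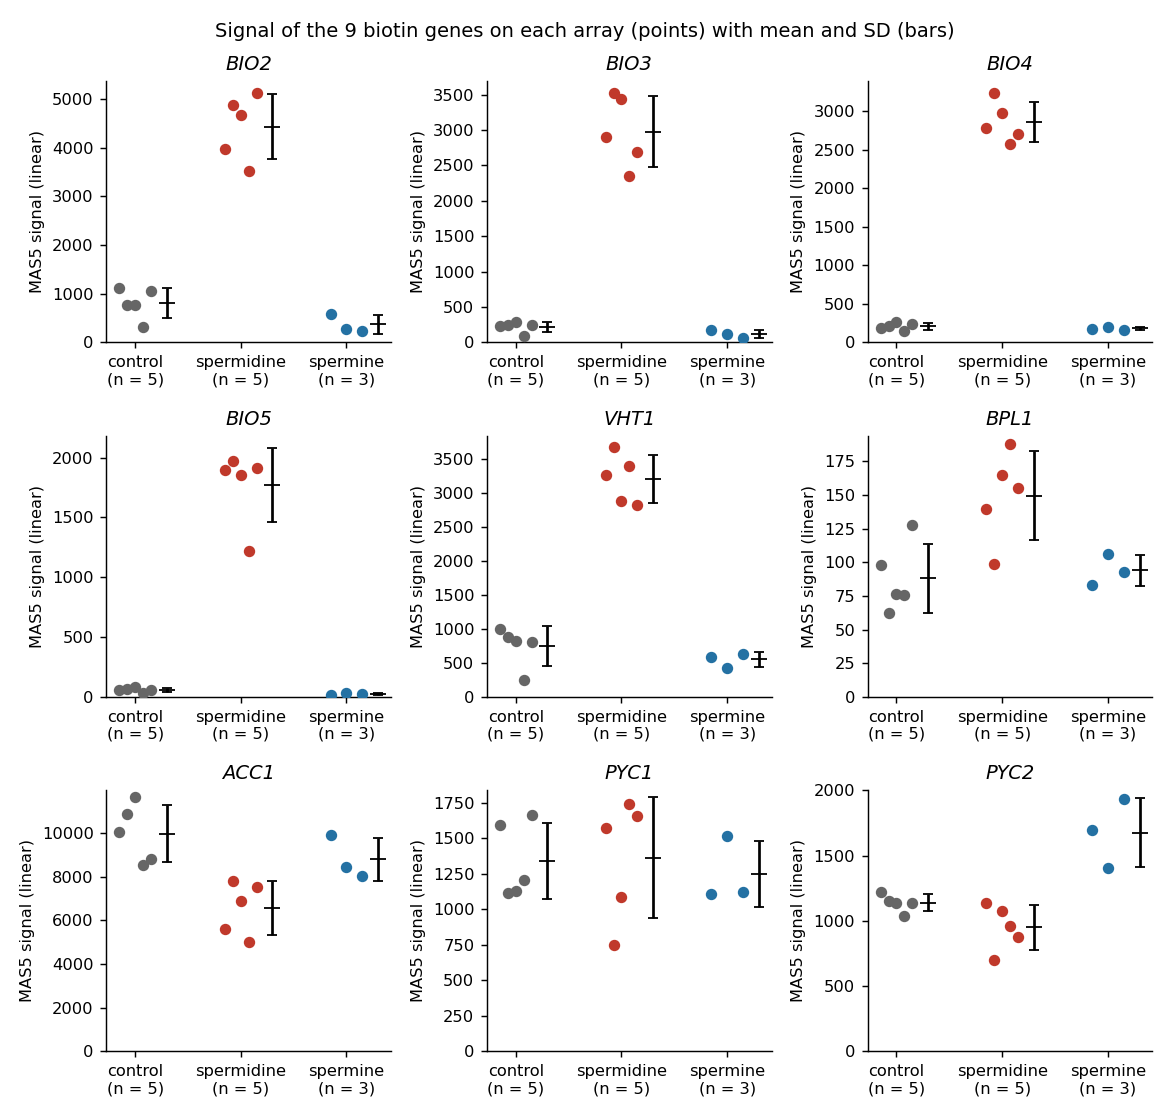
MAS5 signal on a linear axis from 0 for each of the 9 genes, with 1 point per array for 5 control, 5 spermidine and 3 spermine arrays and the mean and SD beside each group. In BIO2, BIO3, BIO4, BIO5 and VHT1 the spermidine points stand above all other points, in ACC1 they lie below, and in PYC2 the spermine points are highest.

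Among the genes described, that for uptake of the precursor rose most. The signals of BIO5 (YNR056C) were 60.0, 64.8, 81.7, 35.0 and 55.5 on controls 1 to 5, 1892, 1969, 1855, 1218 and 1915 on spermidine arrays 1 to 5, and 20.2, 32.2 and 26.7 on spermine arrays 1 to 3. The lowest spermidine array was 14.9 times the highest control, so the groups did not overlap. BIO5 rose by log2 4.90 ± 0.21 (limma adjusted p = 8.66e-10), and ranked 5 among 5102 genes by the size of the rise. Its control mean of 59.4 ± 16.8 (SD, n = 5) lay above the background level, taken as percentile 95 of 19 control probe sets for sequences that yeast lacks. Adding 16 signal units before the log lowered the rise to log2 4.55.

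BIO3 (YNR058W) encodes the aminotransferase that takes its amino group from S-adenosylmethionine. Its signals were 238, 241, 282, 84.4 and 243 in the controls, 2898, 3518, 3438, 2343 and 2690 with spermidine, and 171, 120 and 69.9 with spermine. Control 4 was far below the other controls, and all spermidine arrays were above all controls. The rise was 14.4-fold (log2 3.84 ± 0.30, adjusted p = 5.21e-07).

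BIO4 (YNR057C) encodes dethiobiotin synthetase and varied less between arrays. Its signals were 189, 216, 262, 151 and 243 in the controls, 2782, 3240, 2984, 2574 and 2707 with spermidine, and 180, 203 and 165 with spermine. The spermidine arrays lay close to each other and far above both other groups, which overlapped. BIO4 rose 13.4-fold (log2 3.74 ± 0.15, adjusted p = 7.15e-10) and had the smallest p of the 5102 genes.

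BIO2 (YGR286C) encodes biotin synthase, the mitochondrial iron-sulfur enzyme of the last step. Its signals were 1109, 778, 778, 325 and 1056 in the controls, 3979, 4878, 4665, 3516 and 5120 with spermidine, and 594, 279 and 243 with spermine. The lowest spermidine array was 3.17 times the highest control. The rise was 5.94-fold (log2 2.57 ± 0.30, adjusted p = 2.19e-05).

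VHT1 (YGR065C) encodes the plasma membrane transporter that imports biotin with protons. Its signals were 1008, 883, 817, 250 and 809 in the controls, 3269, 3679, 2885, 3399 and 2821 with spermidine, and 590, 433 and 632 with spermine. Again control 4 was the lowest control and no spermidine array overlapped with a control. VHT1 rose 4.69-fold (log2 2.23 ± 0.30, adjusted p = 6.31e-05). For BIO2, BIO3, BIO4, BIO5 and VHT1, spermidine groups thus lay wholly above controls, as they did for 14.1% of all genes.

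The 5 genes did not rise equally. In exact two-sided permutation tests of the within-array log2 ratio of each pair of genes, 5 spermidine against 5 control arrays, the rise of BIO5 exceeded that of BIO3 by 1.05 and that of BIO4 by 1.15, each with p = 0.00794, the smallest such a test can give. Over the 10 pairs, adjusted p was 0.00992 for 8. The rises of BIO3 and BIO4 differed by 0.10 (adjusted p = 0.825) and those of BIO2 and VHT1 by 0.34 (adjusted p = 0.132). In fold size the order was therefore BIO5, then BIO3 and BIO4, then BIO2 and VHT1. No order was resolved between BIO3 and BIO4 or between BIO2 and VHT1. The probe sets differ and start from unlike levels, with control means of 59.4 for BIO5, 809 for BIO2 and 753 for VHT1. With 16 signal units added before the log, BIO5 rose by 4.55 and BIO3 by 3.73, a smaller gap.

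**Figure D2:**
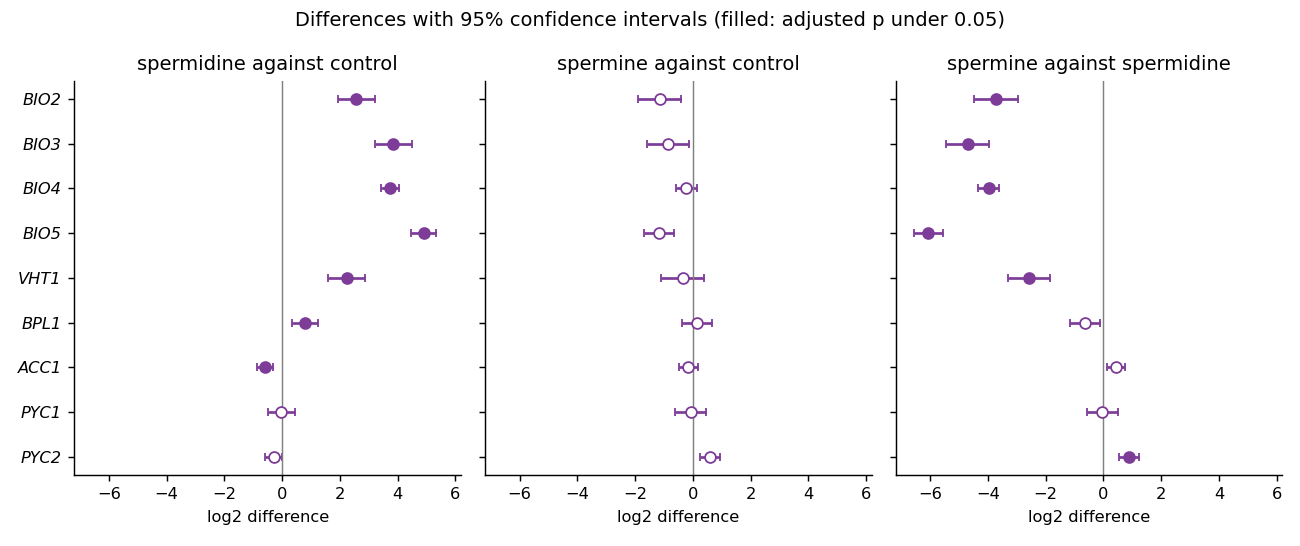
Log2 differences of the 9 genes in the 3 comparisons with 95% confidence intervals from limma over 13 arrays, filled where the adjusted p is under 0.05. With spermidine the 4 BIO genes and VHT1 lie between 2.23 and 4.90, with spermine no gene is filled, and between the treatments BIO5 lies at -6.08.

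The genes for ligation and use of biotin showed smaller differences. The signals of BPL1 (YDL141W) were 97.9, 62.7, 76.4, 75.7 and 128 in the controls, 140, 99.0, 165, 188 and 155 with spermidine, and 83.3, 106 and 92.7 with spermine. The spermidine and control ranges overlapped. BPL1 rose by log2 0.78 ± 0.21 (adjusted p = 0.0112), but without controls 2 and 3 and spermine 1 the value was 0.51 ± 0.20 (adjusted p = 0.0751) and was not called. Controls 2 and 3 are 2 of its 3 lowest controls.

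ACC1 (YNR016C) encodes the cytosolic acetyl-CoA carboxylase, which commits acetyl-CoA to fatty acid synthesis. Its signals were 10068, 10856, 11647, 8537 and 8810 in the controls, 5599, 7824, 6912, 4998 and 7511 with spermidine, and 9917, 8435 and 8048 with spermine. Every spermidine array was below every control and every spermine array. Spermidine lay wholly below control for 9.39% of all genes, and spermine wholly above spermidine for 12.8%. ACC1 fell by 0.59 on the log2 scale (SE 0.13, adjusted p = 0.00316). It kept its call in all 22 alternative settings, with values from -0.66 to -0.47.

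PYC1 (YGL062W) and PYC2 (YBR218C) encode close paralogs of pyruvate carboxylase, which replenishes oxaloacetate, and cross-hybridisation between their probe sets was not tested. PYC1 signals spread from 1119 to 1669 in the controls, from 753 to 1743 with spermidine and from 1112 to 1520 with spermine, and the groups overlapped throughout. Its log2 difference with spermidine was -0.03 (95% interval -0.50 to 0.43, adjusted p = 0.921). For PYC2 it was -0.29 (95% interval -0.58 to 0.01, adjusted p = 0.127).

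Spermine, which carries an additional aminopropyl group compared with spermidine, was set against the same controls, so both comparisons share them. None of the 9 genes was called with spermine by limma, against 0.0196% of all genes, 1 of 5102. At an unadjusted p under 0.05 there were 4 of the 9, against 8.49% of all genes: BIO2, BIO3 and BIO5 with lower values than control and PYC2 with a higher one. The median log2 difference over the 9 genes was -0.23, and 0.02 over all genes.

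The mean BIO5 signal with spermine was 26.4 (range 20.2 to 32.2, n = 3), above the background level of 19.4 of that group but below the dimness limit of 37.8 that probe sets had to reach on average over all arrays. All 3 spermine arrays were below all 5 controls, as for 2.55% of all genes. The log2 difference was -1.18 ± 0.24 (95% interval -1.69 to -0.67, adjusted p = 0.0785). Without control 4, the lowest control for BIO5, it was -1.34 ± 0.21 and was called (adjusted p = 0.0465). Without controls 2 and 3 and spermine 1 it was -0.88 ± 0.28 (adjusted p = 0.450), and over all alternative settings the adjusted p ranged from 0.0427 to 0.450.

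BIO2 stood at log2 -1.15 ± 0.35 with spermine (95% interval -1.90 to -0.40, adjusted p = 0.295) and BIO3 at -0.86 ± 0.35 (95% interval -1.60 to -0.12, adjusted p = 0.498). In both genes control 4 lay within the spermine range, so the groups overlapped. For BIO4, the BIO gene with the smallest error, the value was -0.23 (95% interval -0.59 to 0.14), the upper end of which lies far below the rise with spermidine. VHT1 had -0.35 (95% interval -1.09 to 0.38), BPL1 0.13 (-0.39 to 0.65), ACC1 -0.16 (-0.48 to 0.17) and PYC1 -0.08 (-0.62 to 0.46).

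PYC2 had its highest signals with spermine. Its signals were 1221, 1148, 1137, 1038 and 1140 in the controls, 1140, 700, 1072, 962 and 873 with spermidine, and 1693, 1403 and 1931 with spermine. The spermine arrays were above all others, and 3.86% of all genes had spermine wholly above control. Against control the value was log2 0.59 ± 0.16 (95% interval 0.25 to 0.94, adjusted p = 0.239) and was not called. Against spermidine PYC2 was higher by log2 0.88 ± 0.16 (adjusted p = 0.00128).

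The direct comparison of spermine with spermidine, the single pair of compounds, tests whether the responses differ. Since doses and times are not given, whether they were matched is unknown. Here 6 of the 9 genes were called, against 20.6% of all genes, 5 lower with spermine (11.2% of all genes) and 1 higher (9.43%). BIO5 was 67.5-fold lower with spermine than with spermidine (log2 -6.08 ± 0.24, adjusted p = 9.35e-10), the largest fall of the 5102 genes in this fit. With 16 signal units added before the log it was log2 -5.38. BIO3 was 26.1-fold lower (log2 -4.71 ± 0.35), BIO4 15.7-fold (-3.97 ± 0.17), BIO2 13.2-fold (-3.72 ± 0.35) and VHT1 5.99-fold (-2.58 ± 0.34). For these 5 genes every spermidine array exceeded every spermine array, by at least 4.46 times in VHT1 and 37.8 times in BIO5, and spermine lay wholly below spermidine for 14.8% of all genes.

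The genes of ligation and use differed less between the compounds. BPL1 stood at log2 -0.65 (95% interval -1.17 to -0.13, adjusted p = 0.0731) and ACC1 at 0.43 (95% interval 0.11 to 0.75, adjusted p = 0.0555), neither called. ACC1 was called without control 4 (0.43, adjusted p = 0.0460) but stayed uncalled in 21 of 22 alternatives. Without spermine 1 its value was 0.26 (limma adjusted p = 0.272). BPL1 was called without control 2 (adjusted p = 0.0493), without control 5 (0.0441) and with only the compared groups in the fit (0.0314). It stayed uncalled in 18 of 21 alternatives, and without spermine 1 its value was -0.55 (adjusted p = 0.215). PYC1 had -0.05 (95% interval -0.58 to 0.49). The missed threshold does not show that the compounds act alike on these genes.

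**Figure D3:**
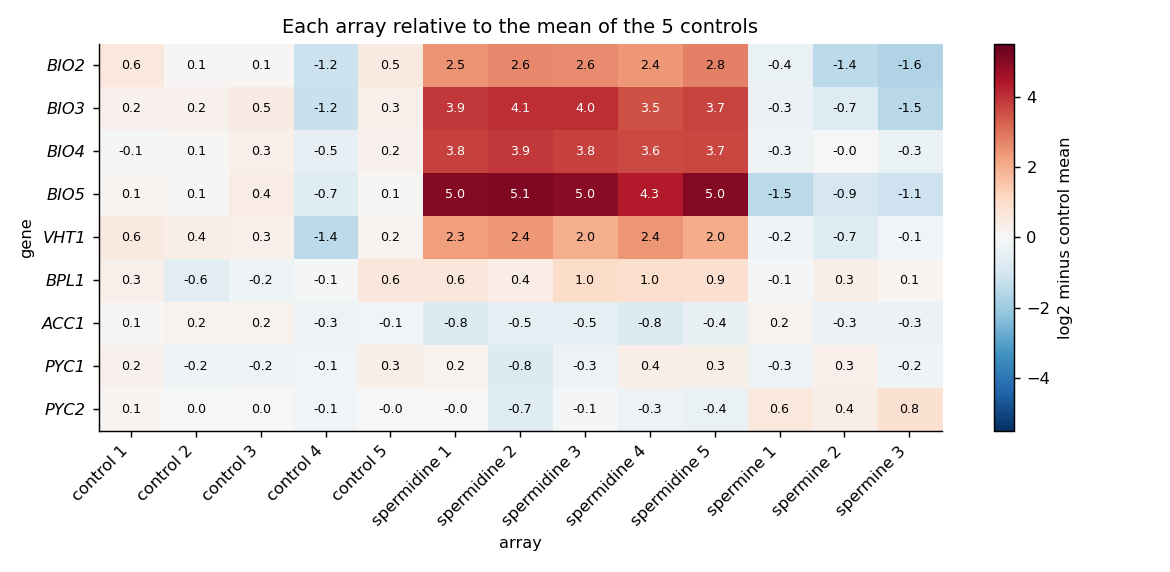
Log2 value of each gene on each of the 13 arrays minus its mean over the 5 controls, red for higher and blue for lower. Control 4 is blue in BIO2, BIO3, BIO4, BIO5 and VHT1, and spermidine 4 has the palest BIO5 cell of its group.

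Individual arrays also differed within groups. Control 4 was the lowest control in all of BIO2, BIO3, BIO4, BIO5 and VHT1, on average by a log2 of -0.99 from the control mean of each gene. The other 4 controls averaged between 0.16 and 0.30. Over all 5102 genes the SD of the deviations of control 4 was 0.33, inside the range of 0.32 to 0.42 of the controls, so it did not stand apart across the genome. Among spermidine arrays, number 4 was lowest in 4 of the 5 genes, at -0.56 in BIO5 but 0.20 in VHT1. Leaving out control 4 gave spermidine rises of log2 2.27 for BIO2, 3.53 for BIO3, 3.62 for BIO4, 4.73 for BIO5 and 1.87 for VHT1, all called.

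BIO5, BIO4 and BIO3 lie side by side on chromosome XIV, and the reference gene order allowed their neighbours to be examined. On one side lie HOL1, which encodes a polyamine transporter, a tRNA gene that was not tested and ESF2, a factor of ribosome assembly. On the other lie MNT4, a putative mannosyltransferase gene, FRE4, a ferric reductase gene, and YNR061C. HOL1, next to BIO5, had signals of 993, 846, 915, 955 and 890 in the controls and 861, 877, 804, 800 and 856 with spermidine. Its log2 difference was -0.14 ± 0.10 with spermidine (adjusted p = 0.330) and 0.10 ± 0.12 with spermine. MNT4, next to BIO3, rose by log2 0.74 ± 0.19 with spermidine (adjusted p = 0.00940). With spermine MNT4 had 0.66 ± 0.22 (limma adjusted p = 0.380, not called), and for spermine against spermidine -0.08 ± 0.22. With spermidine FRE4 had 0.52 ± 0.39, YNR061C 0.68 ± 0.38 and ESF2 -0.40 ± 0.19, none of them called.

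ERV29, the second gene from BIO2 on chromosome VII and a cargo receptor of vesicles leaving the endoplasmic reticulum, rose by log2 1.49 ± 0.14 with spermidine, while ZUO1 between them had -0.16 ± 0.16 (adjusted p = 0.456). On the other side of BIO2, IMA1 was not tested and MAL13, a maltose regulator gene, had 0.15 ± 0.17. Around VHT1, on the same chromosome, COX18, SPT4 and YGR067C had values between -0.44 and 0.16 and none was called with spermidine, and GID10 was not tested. In all, 11 of 14 neighbours were tested, and 2 rose and 0 fell with spermidine by limma, beside 17.9% and 14.7% of all genes.

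**Figure D4:**
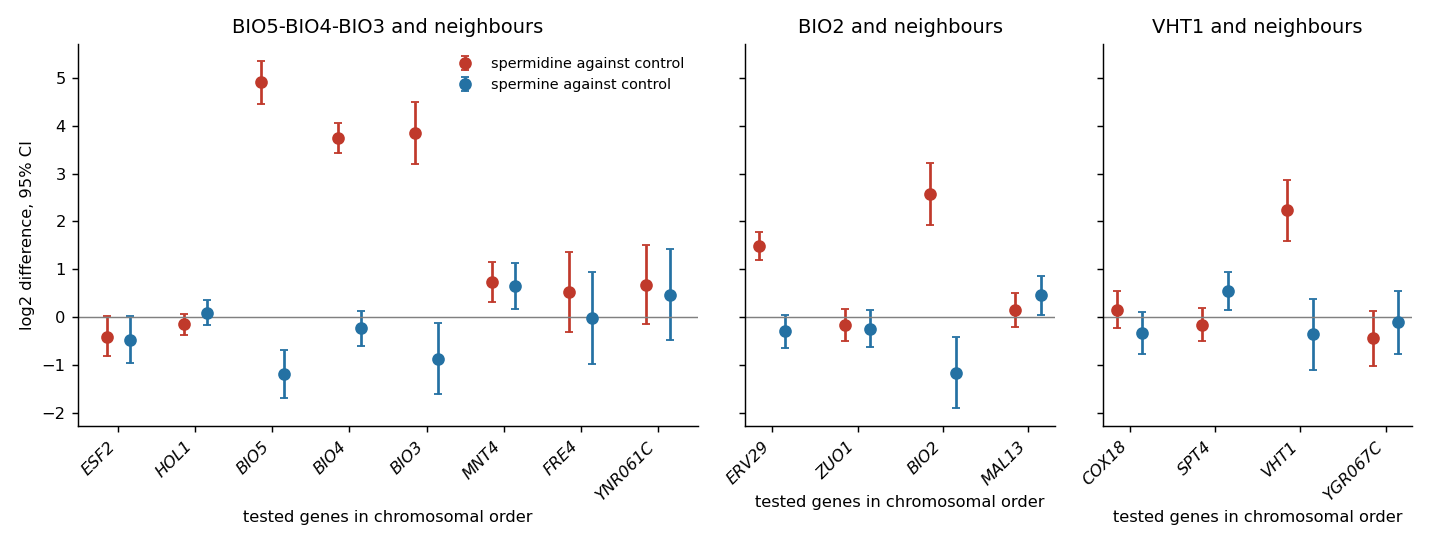
Log2 differences from control with 95% confidence intervals, red for spermidine and blue for spermine, for the tested genes around BIO5, BIO4 and BIO3, around BIO2 and around VHT1 in chromosomal order. The 3 BIO genes stand between 3.74 and 4.90 in red, and the adjacent HOL1 and MNT4 lie at -0.14 and 0.74.

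Among other genes tied to biotin, VHR1 encodes a transcription activator of VHT1 and BIO5 at low biotin. Its signals were 638, 589, 518, 381 and 639 in the controls, 1089, 939, 911, 1139 and 871 with spermidine, and 643, 403 and 495 with spermine. All spermidine arrays were above all others, and control 4 was again the lowest control. VHR1 rose by log2 0.84 ± 0.17 with spermidine (adjusted p = 0.00137), and spermine was lower than spermidine by log2 -0.97 ± 0.19 (adjusted p = 0.00233). Its relative VHR2 had -0.34 ± 0.23 with spermidine (adjusted p = 0.271).

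HFA1, the mitochondrial acetyl-CoA carboxylase gene, had signals of 74.0, 77.0, 73.4, 62.0 and 59.0 in the controls and 83.7, 111, 143, 119 and 102 with spermidine. It rose by log2 0.68 ± 0.21 (adjusted p = 0.0200), while the gene of the cytosolic form fell, but lost its call without spermidine 3 (0.57, adjusted p = 0.0530). ARC1, a tRNA synthetase cofactor that carries biotin, had -0.07 ± 0.14. Of these 4 genes tested in a list of 5, 2 rose with spermidine, beside 17.9% of all genes, and 0 were called with spermine by limma, beside 0.0196% of all genes, where 0 also had an unadjusted p under 0.05. DUR1,2, urea amidolyase, was not analysed here.

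S-adenosylmethionine is the amino donor of Bio3, and both synthetase genes were called higher with spermidine, beside 17.9% of all genes. Their products are near-identical, and cross-hybridisation between the probe sets was not tested. Whether these rises are tied to that of BIO3 was not tested either. SAM1 rose by log2 0.50 ± 0.12 (adjusted p = 0.00495) and SAM2 by 0.58 ± 0.12 (adjusted p = 0.00202). Their values with spermine were 0.03 and 0.02.

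Bio2 carries iron-sulfur clusters, and of 14 tested genes of cluster assembly 4 rose and 2 fell with spermidine, beside 17.9% and 14.7% of all genes, with a list median of 0.06. Without spermidine 1 the counts were 1 and 2, and the rises of NFS1 (adjusted p = 0.0730), YAH1, the ferredoxin gene (0.109), and IBA57 were no longer called. The call of NFS1 also ended without control 2 or 4, spermidine 3 or controls 2 and 3 and spermine 1 together (adjusted p from 0.0540 to 0.0765), and that of YAH1 without control 4 or 5, spermine 3 or spermidine 2 or 5 (0.0529 to 0.0999) and with only the compared groups in the fit (0.0561). ARH1, the ferredoxin reductase gene, rose by log2 1.03 ± 0.13 (adjusted p = 2.94e-05). IBA57, needed in yeast for the maturation of radical enzymes such as biotin synthase, rose by 0.62 ± 0.19 (adjusted p = 0.0217), a call that ends without spermidine 1 (adjusted p = 0.0571), 4 (0.0512) or 5 (0.0559), on the values as deposited (0.0659) and without controls 2 and 3 and spermine 1 (0.0501). The scaffold genes ISU1 and ISU2 fell by 1.27 and 0.70 on the log2 scale (adjusted p = 9.17e-04 and 0.00196). The partner of Iba57 encoded by ISA1 had -0.07 ± 0.13 and that by ISA2 -0.64 ± 0.25, neither called.

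Fatty acid synthesis lies downstream of Acc1. Of 14 tested genes 4 rose and 2 fell with spermidine, beside 17.9% and 14.7% of all genes, and the list median was -0.12. The list also holds HFA1, the gene of the mitochondrial carboxylase, whose rise was already counted among the biotin-related genes. The fatty acid synthase genes FAS1 and FAS2 had -0.12 ± 0.15 and -0.11 ± 0.08 and were not called. ACB1, an acyl-CoA binding protein gene, rose by log2 0.74 ± 0.11 (adjusted p = 1.89e-04), and IFA38, a reductase gene of fatty acid elongation, by 0.72 ± 0.22 (adjusted p = 0.0199). The acyl-CoA synthetase genes FAA1 and FAA4 fell by 0.62 and 0.58 on the log2 scale (adjusted p = 0.0283 and 0.00496). IFA38 lost its call without spermidine 4 (adjusted p = 0.0502) and without controls 2 and 3 and spermine 1 (0.0515). FAA1 lost it without control 1, 3 or 5 (adjusted p from 0.0575 to 0.0632) and without those 3 arrays (0.0894). None of the genes of these lists was called with spermine by limma, beside 0.0196% of all genes. At an unadjusted p under 0.05 there was 1 of 14 in cluster assembly and 1 of 14 in fatty acid synthesis, beside 8.49% of all genes. These were NFS1, the cysteine desulfurase gene, at log2 0.41 ± 0.14 and ACB1 at -0.29 ± 0.13.

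Genes with the most similar patterns were sought among all 5102 by the root mean square difference of log2 values over the 13 arrays, after each gene's own mean was removed. For BIO3 the nearest were BIO4 at 0.45, BIO2 at 0.63 and LYS9, a lysine synthesis gene, at 0.64. For BIO5 they were BIO3 at 0.70, BIO4 at 0.84 and LYS9 at 0.94. For BIO4 the nearest was LYS9 at 0.29, followed by BIO3 at 0.45 and EUG1, a disulfide isomerase gene, at 0.46. For VHT1 the nearest were YJR154W at 0.37, SAM3, an S-adenosylmethionine permease gene, at 0.40 and AAD10, a putative aryl-alcohol dehydrogenase gene, at 0.40. BIO2 was nearest to YJR154W at 0.39, AAD10 at 0.41 and VHT1 at 0.57. The measure rewards a like size of the spermidine rise, since that rise is the main difference between the arrays for all of these genes.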

How the data were processed

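The authors deposited linear MAS5 signal intensities per probe set, per the labels, with the 2% trimmed mean near 500 on each array, so each array had been scaled. The version of MAS5 is not stated in the labels. Present calls were not used. Array medians ranged from 125 to 162. Groups and replicate numbers came from titles.

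Signals were taken to log2 and quantile normalized over all 9335 probe sets. Of these, 60 controls were left out, and 6504 name 1 gene, 328 several and 2443 none. Every identifier of a single gene was found in the RefSeq gene table (assembly R64), used for names and gene order. The dimmest 25% by mean log2 over all arrays were left out, and each gene was represented by its brightest remaining probe set. A model of group means over all 13 arrays was fitted with limma 3.58.1 under R 4.3.3, with an intensity trend for the variance. Fits were tested on simulated data. Figures were drawn with matplotlib 3.10.9.

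Members and lists were chosen with earlier results of these data known. The text names all members, other biotin-related genes, neighbours, up to 4 called genes per other list, and the 3 nearest genes of each of 5 members. In addition FAA4, FAS1, FAS2, ISA1, ISA2, NFS1, YAH1, TNA1, DAL5 and TPN1 were named after their values were seen. Sequences were not analysed here.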

Additional observations from a re-analysis of the deposited data

Results flagged for a closer look

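In 18 checks, 9 genes in the control and in the spermidine group, the gap between the extreme array and its nearest neighbour was divided by the range of the group, and 3 ratios exceeded Dixon's critical value of 0.710 for 5 samples. Chance alone gives about 1 such group in 20, but the 9 genes share the same arrays, so the checks are not independent. Control 4 was far below the other controls in BIO3, with a ratio of 0.883, and in VHT1, with a ratio of 0.829. Spermidine 4 was far below the other spermidine arrays in BIO5, with a ratio of 0.843. Both genes keep their spermidine call without control 4, and BIO5 keeps it without spermidine 4.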

How the results depend on the processing

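The 9 genes were recomputed under 22 alternatives: 9 other settings or fits, and each of the 13 arrays left out. With spermidine 6 or 7 were called under every alternative (7 whichever array was left out), and between spermine and spermidine 6 or 7. With spermine the count went from 0 to 1 with a replicate block, where BIO5 reached -1.35 (adjusted p = 0.0427), and ranged from 0 to 1 with single arrays left out, the 1 being BIO5 without control 4. Titles share replicate numbers, which were not taken to pair samples. Deviations of same-numbered arrays correlated between -0.567 and 0.203. Differently numbered arrays were not set beside them, so these correlations cannot settle whether the numbers pair samples. Single values, 27 in all, kept their call or lack of one in 584 of 591 recomputations, with 1 call lost and 6 gained. The sign changed in 15, all of them uncalled values of PYC1 (any comparison) or of BPL1 with spermine. With the replicate block HFA1 (adjusted p = 0.0540), NFS1 (0.0766) and FEN2 (0.0908) also lost their spermidine calls. BPL1 was not tested with the dimmest 50% left out. Low signals limit BIO5 with spermine and in controls, BPL1, HFA1, IBA57, SEO1 and NRT1.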

Other observations

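Transporters related to Vht1 or importing other vitamins were also examined. Of 10 tested, 2 rose and 2 fell with spermidine, near the shares of 17.9% and 14.7% of all genes. The list median was 0.30. SEO1, a putative permease gene of the same family as VHT1, rose by log2 2.87 ± 0.61 (adjusted p = 0.00228). NRT1, a nicotinamide riboside transporter gene, rose by 0.92 ± 0.18 (adjusted p = 0.00130). Both started from low control means, log2 5.05 for SEO1 and 5.37 for NRT1, which limits the fold sizes. THI7, the thiamine transporter gene, fell by 0.56 on the log2 scale (adjusted p = 0.0268), and FEN2, the pantothenate transporter gene, by 0.44 (adjusted p = 0.0434). The fall of FEN2 lost its call on the values as deposited (adjusted p = 0.0826), and also without control 1, 2 or 4, spermine 2 or spermidine 1, 2, 3 or 4 (adjusted p from 0.0512 to 0.105). That of THI7 lost it without control 1, 2 or 3 or spermidine 3 or 5 (adjusted p from 0.0539 to 0.0648). Without controls 2 and 3 and spermine 1 together, adjusted p was 0.0672 for FEN2 and 0.0999 for THI7. TNA1, the nicotinic acid permease gene, had 0.25 ± 0.19 and was not called. With spermine none of the 10 was called by limma, beside 0.0196% of all genes. At an unadjusted p under 0.05 there were 2 of 10, both higher than control, beside 8.49% of all genes. These were DAL5 (95% interval of the log2 difference 0.03 to 0.76) and TPN1, a pyridoxine transporter gene (0.33 to 1.67). Normalized values of TPN1 with spermine lay wholly above control, as for 3.86% of all genes. SEO1 had 0.54 ± 0.70 with spermine.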
